A study of Rattus norvegicus with 8 samples.

Results

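The 9 genes described here encode the receptors, ligands and junction proteins of angiopoietin-TIE and vascular endothelial growth factor (VEGF) signalling: Tie1, Tek, Angpt1, Angpt2, Kdr, Flt1, Vegfa, Pecam1 and Cdh5. They were chosen by name, with earlier results of these data known, and 16 probes of 41012 on the array stood for them. All 9 were among the 24462 genes tested, through 15 of their probes, and the remaining Tek probe was well above background on 0 arrays. RNA came from kidneys that Dark Agouti rats had donated to Lewis recipients of another MHC type. Every recipient was male and had lost both own kidneys, and every graft was held 25 min at 4 °C and sampled 24 h after surgery. Rats weighed 120 to 250 g, and ages are not given in the sources used here. Anti-IL6R grafts went into recipients given 500 µg of a neutralizing antibody to the interleukin-6 receptor right after surgery, and their donors were 20 to 50% lighter than the recipients. Prednisolone grafts had the same weight gap, and the recipients were given 15 mg/kg of this glucocorticoid. High-difference grafts had the same weight gap and no drug, and low-difference grafts had a gap of 0 to 20% and no drug. Each group held 2 arrays, which the series describes as biological replicates.

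Angiopoietin-1, made largely by the mural cells around vessels, activates the endothelial receptor TIE2, the product of Tek, and keeps endothelium quiescent and tight. Angiopoietin-2, stored in and released from activated endothelium, opposes or replaces that signal depending on context, and TIE1 is a partner receptor that modulates TIE2. VEGF-A, which podocytes and tubules make in the kidney, signals to endothelium mainly through the receptor encoded by Kdr, while the receptor encoded by Flt1 binds it tightly and limits its action. VE-cadherin, the product of Cdh5, and PECAM-1 hold endothelial cells to each other.

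The promoters of Tie1, Kdr and Vegfa are shown because Tie1 and Kdr are receptors whose high-difference arrays lay below all others and Vegfa is the ligand of Kdr. Tek separated in the same way and is not shown. RefSeq's promoter table for GRCr8 matched 4 of the 9 members, the fourth being Flt1, and each sequence is the 250 bases before the start. Tie1 lies at chr5:137304982-137305231 on the minus strand, Kdr at chr14:32571813-32572062 on the plus strand and Vegfa at chr9:22452604-22452853 on the plus strand. Capitals mark GGAA or its complement TTCC, the core that ETS transcription factors bind, and GGGCGG or its complement CCGCCC, a GC box.
Tie1: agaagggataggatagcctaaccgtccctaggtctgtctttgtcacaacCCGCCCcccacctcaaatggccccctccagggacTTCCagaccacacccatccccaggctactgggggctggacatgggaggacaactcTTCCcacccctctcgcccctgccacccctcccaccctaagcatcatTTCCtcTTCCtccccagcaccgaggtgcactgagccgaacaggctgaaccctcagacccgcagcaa
Kdr: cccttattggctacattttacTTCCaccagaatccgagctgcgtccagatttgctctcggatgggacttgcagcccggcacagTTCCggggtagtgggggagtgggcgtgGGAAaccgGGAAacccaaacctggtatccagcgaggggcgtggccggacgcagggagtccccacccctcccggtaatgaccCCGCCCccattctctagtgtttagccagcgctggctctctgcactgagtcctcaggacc
Vegfa: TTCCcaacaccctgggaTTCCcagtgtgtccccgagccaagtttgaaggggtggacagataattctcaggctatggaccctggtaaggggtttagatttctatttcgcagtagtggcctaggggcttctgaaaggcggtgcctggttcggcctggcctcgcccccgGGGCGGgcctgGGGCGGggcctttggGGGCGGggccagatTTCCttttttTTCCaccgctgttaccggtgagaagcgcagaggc
Both strands of these 250 bases were searched, so a match farther upstream would not be seen. GGAA was found in 4 of the 4 member promoters and in 93.2% of 33469 promoters of the same length, so it is a match that nearly every promoter has. GGGCGG was found in 4 of the 4 and in 30.5% of all. Of the cores recognised by hypoxia-inducible factors, ACGTG was found in 0 of the 4 and in 16.6% of all, and GCGTG in 2 of the 4, Kdr and Flt1, and in 25.9% of all. No arrays measured binding, so the matches describe letters only.

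Kidney identity was clear, since all 9 tubule markers tested were well above background on all 8 arrays. Of the gene spots, 71.5 to 74% were well above background on anti-IL6R arrays, 64.5 to 70.2% on prednisolone arrays, 65.3 to 66.5% on high-difference arrays and 71.7 to 72.1% on low-difference arrays. Both treated groups were hybridised on slide 2 and both untreated groups on slide 1. A treated group and an untreated one therefore cannot be told apart from the slides, whereas high against low difference and antibody against prednisolone were compared within a slide. A level below is the log2 processed signal minus that array's 75th percentile. Brightness differs between probes for technical reasons, so a level is read only across arrays. In bulk tissue, fewer cells of a type and less RNA per cell cannot be told apart.

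By group mean, the TIE receptors, the VEGF receptor genes and Pecam1 were lower in high-difference grafts than in low-difference grafts. Their means were also higher in both treated groups than in untreated high-difference grafts. For Flt1 and Pecam1, however, the prednisolone arrays overlapped the high-difference arrays. At the probe that stood for each gene, the differences of the ligands Angpt2 and Vegfa were smaller than their standard errors. Another Angpt2 probe, well above background on all arrays, gave 0.90 ± 0.56 for antibody minus high difference. None of these differences passed limma's adjusted p of 0.05. That threshold was passed by 0 of the 24462 genes in any of the 4 comparisons (0% called), although 3589 genes in high minus low difference, 4333 in anti-IL6R minus high difference, 2893 in prednisolone minus high difference and 831 in anti-IL6R minus prednisolone had an unadjusted p under 0.05. Between 2 arrays and 2, an exact permutation test could give no p under 0.33. The first 3 of these comparisons share the high-difference arrays, so their directions are not independent of each other.

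**Figure D1:**
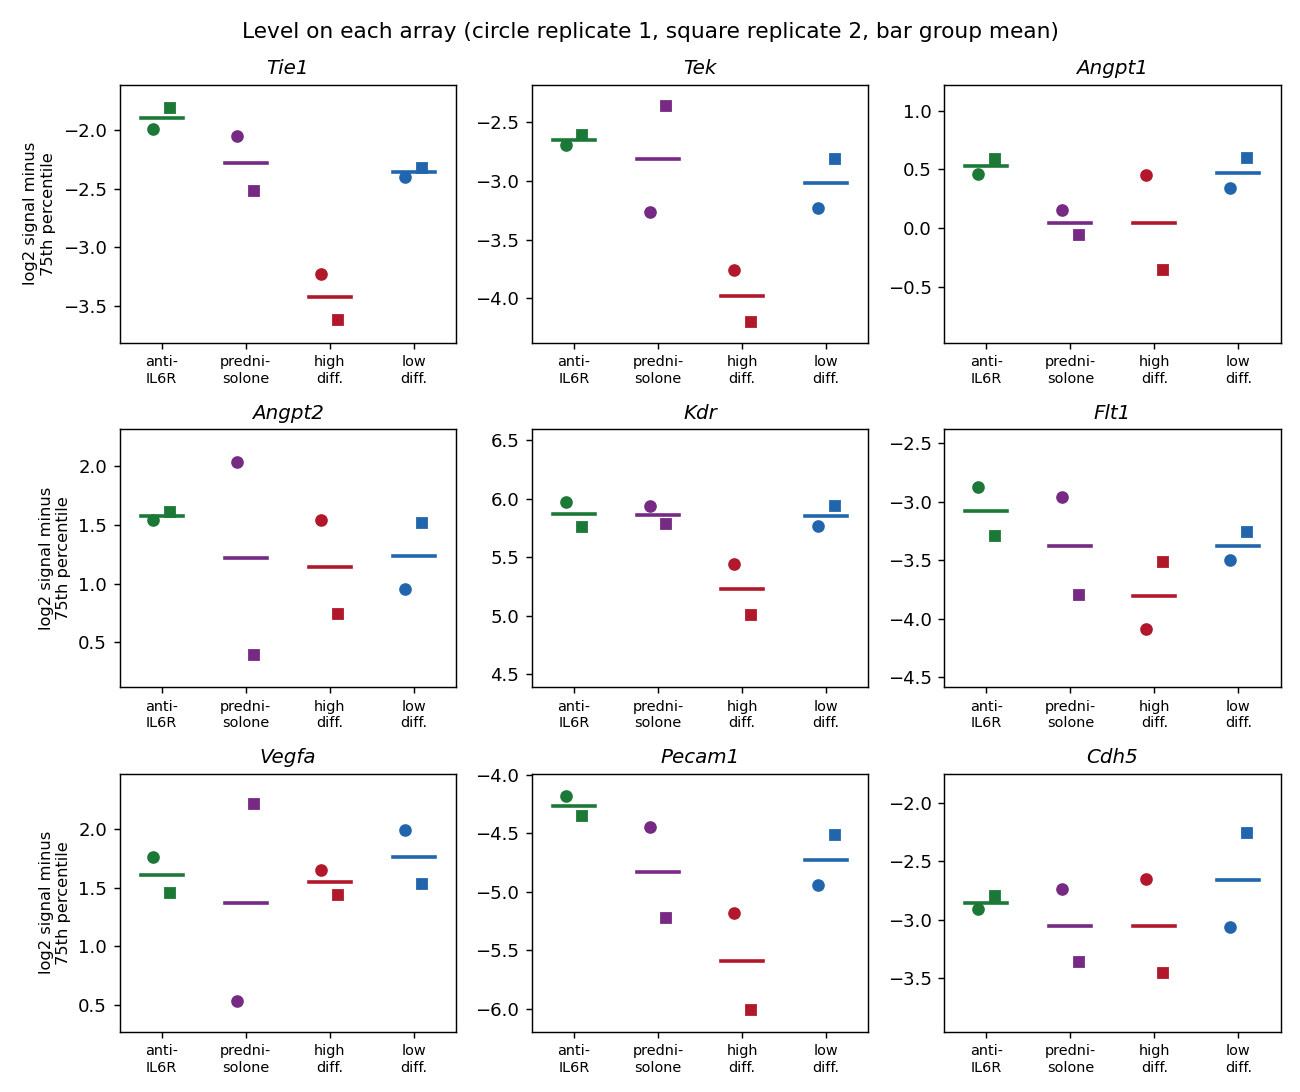
Level of each of the 9 genes on every array, as log2 signal minus the array's 75th percentile, with circles for replicate 1, squares for replicate 2 and bars for group means. Each panel spans the same range of levels but is placed at its own height. The 2 high-difference arrays were the lowest of all for Tie1, Tek and Kdr.

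Tie1 had levels of -1.99 and -1.81 in anti-IL6R grafts, -2.05 and -2.52 in prednisolone grafts, -3.23 and -3.62 in high-difference grafts and -2.40 and -2.32 in low-difference grafts. Both high-difference arrays lay below all other arrays, and the anti-IL6R arrays lay above all others. The groups ranked anti-IL6R, prednisolone, low difference and high difference by mean, and only the prednisolone and low-difference arrays overlapped between neighbours. High minus low difference was -1.06 ± 0.24 log2 units (moderated SE), with an adjusted p of 0.30 (limma). Against the high-difference grafts it was 1.53 ± 0.24 higher with the antibody, a 2.89-fold level with an adjusted p of 0.15 (limma), and 1.14 ± 0.24 higher with prednisolone, a 2.20-fold level with an adjusted p of 0.31 (limma). Leaving out either prednisolone array or both gives the same estimate of spread, since a lone array adds nothing to it. These fits are therefore not separate support for each other. With both left out, the antibody difference passed in limma, at an adjusted p of 0.0499. Leaving out any other array kept it above the threshold, with adjusted p-values of up to 0.645, reached without anti-IL6R replicate 1.

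The other Tie1 probe was not well above background on either high-difference array, so only bounds can be given. Its level was at least 2.50-fold higher in anti-IL6R grafts and at least 3.04-fold higher in prednisolone grafts than in high-difference grafts. Its level in low-difference grafts was at least 1.80-fold that in high-difference grafts. A bound always puts the dim group on the lower side, so these directions are no test of those of the brighter probe.

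Tek, the receptor of both angiopoietins, had levels of -2.69 and -2.61 in anti-IL6R grafts, -3.26 and -2.36 in prednisolone grafts, -3.76 and -4.20 in high-difference grafts and -3.23 and -2.81 in low-difference grafts. The high-difference arrays were again the lowest, and the prednisolone arrays spanned the values of both other groups. The difference was -0.96 ± 0.34 for high minus low difference, with an adjusted p of 0.32 (limma), 1.33 ± 0.34 for antibody minus high difference, with 0.20, and 1.17 ± 0.34 for prednisolone minus high difference, with 0.35.

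The ligand of quiescence, Angpt1, had levels of 0.46 and 0.59 in anti-IL6R grafts, 0.15 and -0.06 in prednisolone grafts, 0.45 and -0.36 in high-difference grafts and 0.34 and 0.60 in low-difference grafts. Its high-difference arrays lay farther apart than any pair of group means, and the first of them lay just below the anti-IL6R arrays. The limma differences were -0.43 ± 0.30 for high minus low, 0.48 ± 0.30 for antibody minus high difference and 0.00 ± 0.30 for prednisolone minus high difference.

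Angpt2, the destabilising ligand, had levels of 1.54 and 1.61 in anti-IL6R grafts, 2.04 and 0.39 in prednisolone grafts, 1.54 and 0.74 in high-difference grafts and 0.95 and 1.52 in low-difference grafts. The 2 prednisolone arrays held the highest and the lowest value of the 8, 1.65 log2 units apart. The groups overlapped in each of the 4 comparisons. High minus low difference was -0.10 ± 0.56 with a 95% interval of -1.45 to 1.26, antibody minus high difference 0.43 ± 0.56 and prednisolone minus high difference 0.07 ± 0.56.

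The 2 other Angpt2 probes split the prednisolone arrays in the same direction. The second probe gave -0.40 and -1.81 there, and the third gave -4.32 and -6.32, where the lower value was not well above background. The second probe, well above background on all arrays, also had the anti-IL6R arrays above the high-difference arrays, with a limma difference of 0.90 ± 0.56, so it disagrees with the first on whether those groups overlap. The third probe had the same order, but it was not well above background on the second high-difference array.

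Kdr, the main signalling receptor for VEGF-A, had levels of 5.97 and 5.76 in anti-IL6R grafts, 5.94 and 5.78 in prednisolone grafts, 5.44 and 5.01 in high-difference grafts and 5.77 and 5.94 in low-difference grafts. The high-difference arrays lay below the other 6, and those 6 lay between 5.76 and 5.97. The difference was -0.63 ± 0.22 for high minus low difference, with an adjusted p of 0.32 (limma), 0.64 ± 0.22 for antibody minus high difference, with 0.24, and 0.63 ± 0.22 for prednisolone minus high difference, with 0.38. Between the treatments it was 0.01 ± 0.22.

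Flt1, the VEGF-A receptor that limits the ligand, had levels of -2.88 and -3.29 in anti-IL6R grafts, -2.96 and -3.80 in prednisolone grafts, -4.09 and -3.52 in high-difference grafts and -3.50 and -3.26 in low-difference grafts. The anti-IL6R arrays lay above the high-difference arrays, and the second prednisolone array lay among them. The differences were -0.43 ± 0.35 for high minus low difference, 0.72 ± 0.35 for antibody minus high difference and 0.43 ± 0.35 for prednisolone minus high difference. The second Flt1 probe was not well above background in high-difference grafts and was at least 1.25-fold higher in anti-IL6R grafts.

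Vegfa, the ligand of both VEGF receptors, had levels of 1.76 and 1.45 in anti-IL6R grafts, 0.53 and 2.21 in prednisolone grafts, 1.65 and 1.44 in high-difference grafts and 1.99 and 1.53 in low-difference grafts. The prednisolone arrays were again the extremes, 1.68 log2 units apart, but in the opposite order from Angpt2. High minus low difference was -0.21 ± 0.52 with a 95% interval of -1.48 to 1.05, antibody minus high difference 0.06 ± 0.52 and prednisolone minus high difference -0.18 ± 0.52. The second Vegfa probe gave -1.31 and -0.16 in the prednisolone grafts, the same order as the first.

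Other lists differed between the same 2 prednisolone arrays. Summed over its tested genes, relative to the array's 75th percentile signal, the tubule marker list was 374 on the first and 781 on the second, the leukocyte list 16.8 and 4.41, and the tubular injury list 378 and 175. Their part in the split of Angpt2 and Vegfa was not tested.

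**Figure D2:**
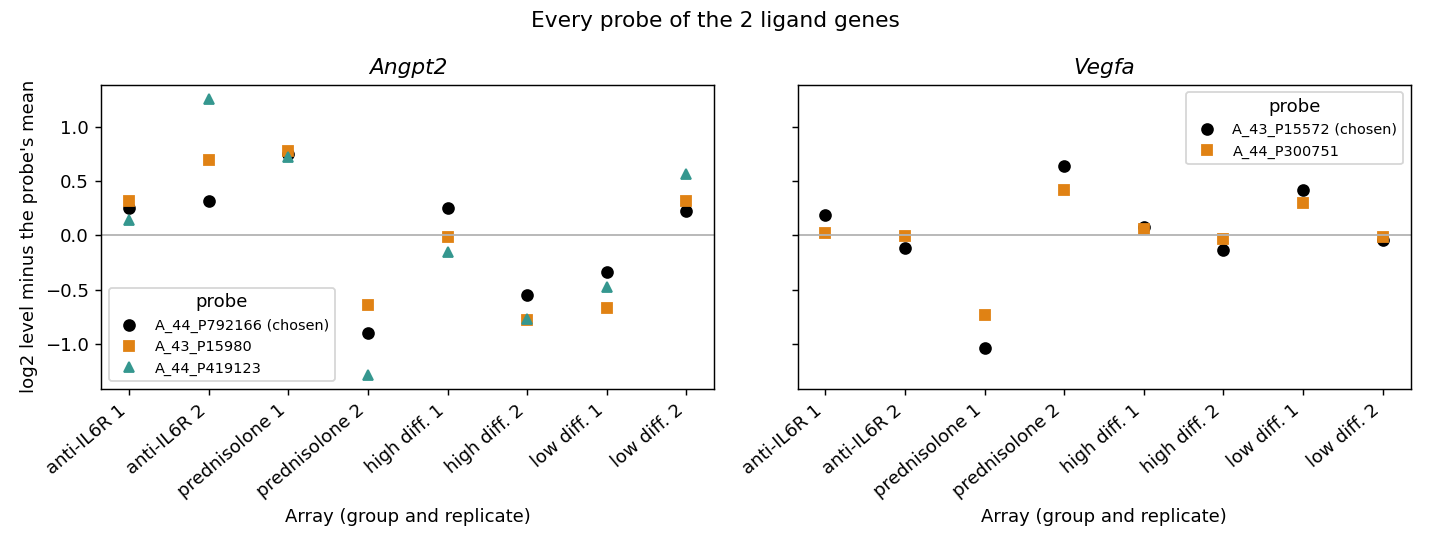
Log2 level of each Angpt2 and Vegfa probe on every array, minus the probe's mean over the 8 arrays. All 3 Angpt2 probes were higher on the first prednisolone array than on the second, and both Vegfa probes were lower.

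Pecam1, the junction protein that platelets and leukocytes also carry, had levels of -4.18 and -4.35 in anti-IL6R grafts, -4.45 and -5.22 in prednisolone grafts, -5.18 and -6.01 in high-difference grafts and -4.94 and -4.52 in low-difference grafts. It was not well above background on the second prednisolone array and the second high-difference array, so the lower ends of those groups are weakly measured. The high-difference arrays lay below the anti-IL6R and the low-difference arrays. The difference was -0.87 ± 0.38 for high minus low difference, with an adjusted p of 0.35 (limma), and 1.33 ± 0.38 for antibody minus high difference, with 0.22. For prednisolone minus high difference it was 0.76 ± 0.38, with an adjusted p of 0.47 (limma), and the arrays overlapped.

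Cdh5, the adhesion molecule of endothelial junctions, had levels of -2.91 and -2.80 in anti-IL6R grafts, -2.74 and -3.36 in prednisolone grafts, -2.65 and -3.45 in high-difference grafts and -3.06 and -2.26 in low-difference grafts. Every group overlapped the high-difference group, which did not stand apart as it did for Tie1. Its second probe was not well above background in high-difference grafts and was at least 1.56-fold higher in anti-IL6R grafts and at least 1.21-fold higher in prednisolone grafts. The brighter probe gave 0.20 ± 0.40 and 0.00 ± 0.40 for the same comparisons, with 95% intervals of -0.76 to 1.15 and -0.95 to 0.96. Those intervals include the second probe's fitted differences of 0.66 and 0.29. A bound also places the dim group lower by construction, so no disagreement between the probes is shown.

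Over the members, high minus low difference had 9 of 9 values below 0, with a median of -0.43 against 0.07 over all genes tested. The arrays did not overlap, with high-difference grafts lower, for 5 of the 9, Tie1, Tek, Kdr, Flt1 and Pecam1, against 23% of all genes (33.5% were higher). For Flt1 the nearest arrays of the groups lay at -3.52 and -3.50, and its dim second probe overlapped. An unadjusted p under 0.05 was reached, lower, by 3 of the 9, Tie1, Tek and Kdr, against 6.43% of all genes (8.24% were higher). The members and lists were chosen with earlier results known, so these counts and those below describe the sets and are no test.

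Antibody minus high difference had 9 of 9 values above 0, with a median of 0.64 against -0.09 over all genes tested. The arrays did not overlap, with anti-IL6R grafts higher, for 6 of the 9, the same 5 and Angpt1, against 23.5% of all genes (36.3% were lower). An unadjusted p under 0.05 was reached by 4 of the 9, Tie1, Tek, Kdr and Pecam1, against 7.09% of all genes (10.6% were lower).

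Prednisolone minus high difference had 8 of 9 values above 0, with a median of 0.43 against -0.08 over all genes tested. The arrays did not overlap for 3 of the 9, Tie1, Tek and Kdr, which were higher, against 13.9% of all genes (25% were lower). The same 3 reached an unadjusted p under 0.05, against 4.25% of all genes (7.58% were lower).

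Antibody minus prednisolone had 9 of 9 values above 0, with a median of 0.29 against -0.01 over all genes tested. The arrays did not overlap for 3 of the 9, Tie1, Angpt1 and Pecam1, which were higher in anti-IL6R grafts, against 11.9% of all genes (14.3% were lower). An unadjusted p under 0.05 was reached by 0 of the 9, against 2.58% of all genes higher and 0.822% lower. For Tie1 the limma difference was 0.39, with a 95% interval of -0.19 to 0.97.

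**Figure D3:**
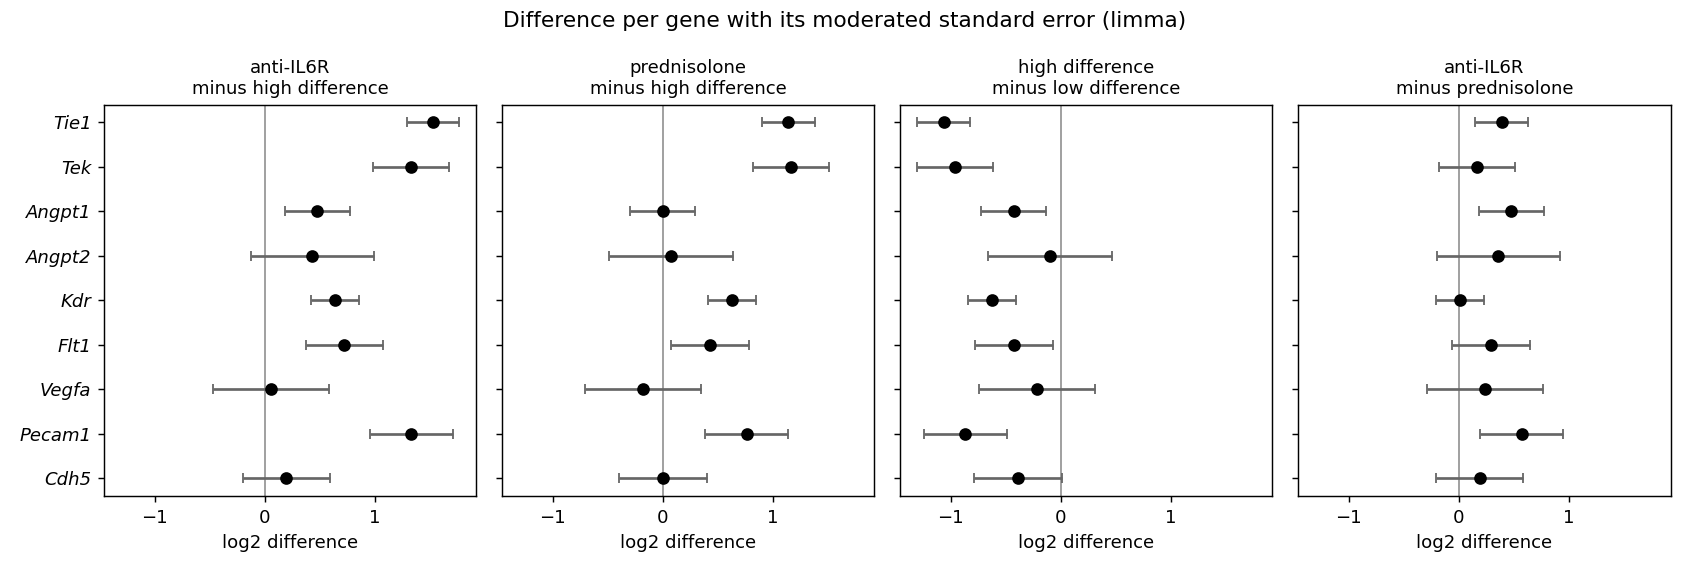
Log2 difference of each member in the 4 comparisons, with its moderated standard error from limma. Tie1, Tek, Kdr and Pecam1 lie to the right of 0 in antibody minus high difference and to the left of 0 in high minus low difference, while Angpt2, Vegfa and Cdh5 lie within 1 standard error of 0 in high minus low difference.

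Endothelial markers that are not members differed in the same direction as the receptors. Their levels were, in the median, -0.54 for high minus low difference, 0.78 for antibody minus high difference and 0.73 for prednisolone minus high difference, over 23 tested of 29 listed. Of the 23, 5 had an unadjusted p under 0.05 in the first comparison, all lower, against 6.43% of all genes. In the second 13 did, all higher, against 7.09%, and in the third 9, all higher, against 4.25%. Plvap, which forms the diaphragms of fenestrated endothelium, had the smallest p of the list in each of these. Its levels were -1.38 and -1.38 in anti-IL6R grafts, -1.95 and -2.81 in prednisolone grafts, -4.75 and -5.37 in high-difference grafts and -3.18 and -1.60 in low-difference grafts. The high-difference arrays lay lowest by more than 1 log2 unit, but the second of them was not well above background, so the size of the gap is weakly measured. The limma difference was 3.68 ± 0.56 with the antibody and 2.68 ± 0.56 with prednisolone.

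To set the members beside those markers, the median level of the 18 endothelial markers well above background on all 8 arrays was subtracted from each member on each array. That median itself differed by -0.78 for high minus low difference, 1.07 for antibody minus high difference and 0.77 for prednisolone minus high difference. Relative to it, Tie1 differed by -0.29, 0.46 and 0.37, Tek by -0.19, 0.26 and 0.40, and Pecam1 by -0.09, 0.26 and 0.00 in those 3 comparisons. Each of these was smaller in size than the gene's own difference. Kdr, Flt1, the ligands and Cdh5 lay on the other side of 0 from the endothelial median in all 3. Any gene whose own difference is smaller than that median's ends there by subtraction alone. The median's differences were also larger in size than the markers' median differences of -0.54, 0.78 and 0.73, over the 23 tested. For high minus low difference, Kdr's own -0.63 was larger in size than that -0.54. After subtraction, Kdr gave 0.15, -0.43 and -0.14, Flt1 0.35, -0.35 and -0.34, Angpt2 0.68, -0.64 and -0.69, Vegfa 0.56, -1.01 and -0.94, Cdh5 0.39, -0.88 and -0.76, and Angpt1 0.35, -0.59 and -0.76. These values are a description, with no test.

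**Figure D4:**
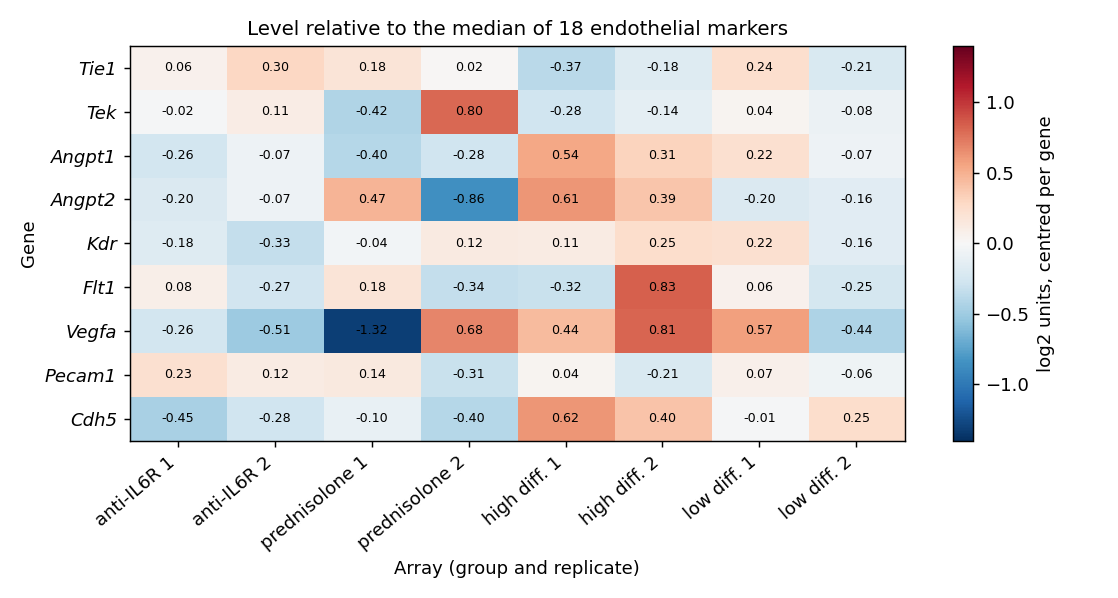
Level of each member on each array relative to the median of 18 endothelial markers, in log2 units, centred on the gene's mean over the 8 arrays (red higher, blue lower). Angpt1 and Cdh5 are red on the high-difference arrays and blue or pale on the treated arrays.

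Markers of several other cell types differed, in the median, in the same direction, while tubular injury markers did not. Mural cell markers, which come from the cells that make angiopoietin-1, had medians of -0.63, 0.93 and 0.80 in the same 3 comparisons (11 of 12 tested). Pdgfrb, the receptor that recruits pericytes, had levels of 3.60 and 3.05 in anti-IL6R grafts, 1.65 and 2.03 in prednisolone grafts, 2.32 and 1.86 in high-difference grafts and 2.93 and 3.31 in low-difference grafts. It was high in anti-IL6R and low-difference grafts, while prednisolone and high-difference grafts overlapped. Pdgfrb did not follow its list there: for prednisolone minus high difference, 9 of the 11 tested mural markers lay above 0. Pdgfrb was among the 2 below, at -0.25 ± 0.30. Podocyte markers had medians of -0.51, 0.41 and 0.55 (11 of 11 tested), tubule markers -1.56, 1.1 and 0.77 (9 of 10) and platelet markers -0.35, 0.21 and 0.44 (4 of 7). Tubular injury markers lay on the opposite side of 0, with medians of 0.9, -1.01 and -0.74 and 6 of the 7 tested genes on that side each time. Lymphatic endothelial markers, with medians of -0.27, 0.16 and 0.23, had 2 of the 4 tested genes above 0 and 2 below in each comparison.

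Leukocyte markers had medians of -1.03, 1.36 and 1.20, with 11 of 13 tested, of which 7 were well above background on all arrays. Their summed signal, relative to each array's 75th percentile signal, ranged from 7.91 to 12.1 in anti-IL6R grafts, 4.41 to 16.8 in prednisolone grafts, 4.01 to 4.35 in high-difference grafts and 6.22 to 8.55 in low-difference grafts. The same sum over endothelial markers ranged from 43.1 to 52.9, 38.4 to 48.8, 29.6 to 37.9 and 41.3 to 46.6 in those groups. Cd3e, a T cell receptor subunit with a dim probe, was well above background on both anti-IL6R arrays and on no other. It was therefore tested only through the group where it was high, and it is among the 11 behind those medians. Cd3d, another subunit, was well above background on all 8 arrays. Its levels were -0.61 and -0.84 in anti-IL6R grafts and -0.51 and -0.72 in low-difference grafts. In prednisolone grafts they were -0.82 and -1.43, and in high-difference grafts -2.01 and -1.99. The part of these cells in the members' differences was not tested.

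Further genes of the pathways were split. Of 32 listed, 30 were tested, with medians of -0.25 for high minus low difference, 0.37 for antibody minus high difference and 0.24 for prednisolone minus high difference. Unadjusted p was under 0.05 for 5 lower and 2 higher in the first, against 6.43% and 8.24% of all genes. In the second it was so for 7 higher and 1 lower, against 7.09% and 10.6%. In the third it was so for 5 higher and 1 lower, against 4.25% and 7.58%. Klf2, a transcription factor of quiescent, flow-exposed endothelium, had levels of -0.95 and -1.25 in anti-IL6R grafts, -1.07 and -1.24 in prednisolone grafts, -2.02 and -1.97 in high-difference grafts and -1.19 and -1.19 in low-difference grafts. Its high-difference arrays lay alone at the bottom, and the limma differences were -0.81 ± 0.19 for high minus low, 0.90 ± 0.19 for the antibody and 0.84 ± 0.19 for prednisolone.

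Dll4, the Notch ligand that VEGF-A induces in tip cells, was not well above background in high-difference grafts. It was at least 2.56-fold higher in anti-IL6R grafts, at least 2.41-fold higher in prednisolone grafts and, in high-difference grafts, at least 1.86-fold lower than in low-difference grafts. Dok2, an adaptor that docks to TIE2, was likewise not well above background in high-difference grafts, and was at least 2.0-fold higher with the antibody and at least 1.75-fold higher with prednisolone. For Dll4 and Dok2 the bounds place the dim group lower by construction, so their directions are no test. Aplnr, the apelin receptor of endothelium, differed by 1.07 ± 0.20 with the antibody and 0.90 ± 0.20 with prednisolone. Not every pathway gene went this way: for antibody minus high difference, 20 of the 30 lay above 0 and 10 below. Among the 10 were Pik3r1, at -1.35 ± 0.44, and Apln, which encodes apelin, at -1.23 ± 0.77. Between the treatments, Pgf, a VEGF family ligand of Flt1, had the smallest p of the pathway list, at -0.72 ± 0.30 and an adjusted p of 0.9999 (limma).

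Hypoxia response genes, which include regulators and targets of the factors that also induce Vegfa, had medians of 0.15, -0.10 and -0.14 in the 3 comparisons (13 of 14 tested). Hif1a, the oxygen-sensitive factor itself, had levels of 4.21 and 3.97 in anti-IL6R grafts, 4.72 and 4.18 in prednisolone grafts, 4.77 and 5.04 in high-difference grafts and 4.29 and 4.32 in low-difference grafts. It was highest on the high-difference arrays, with a limma difference of 0.60 ± 0.24 for high minus low and -0.81 ± 0.24 for antibody minus high difference. Adm, an endothelial peptide that hypoxia induces, went the other way, at -0.996 ± 0.36 and 0.87 ± 0.36.

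**Figure D5:**
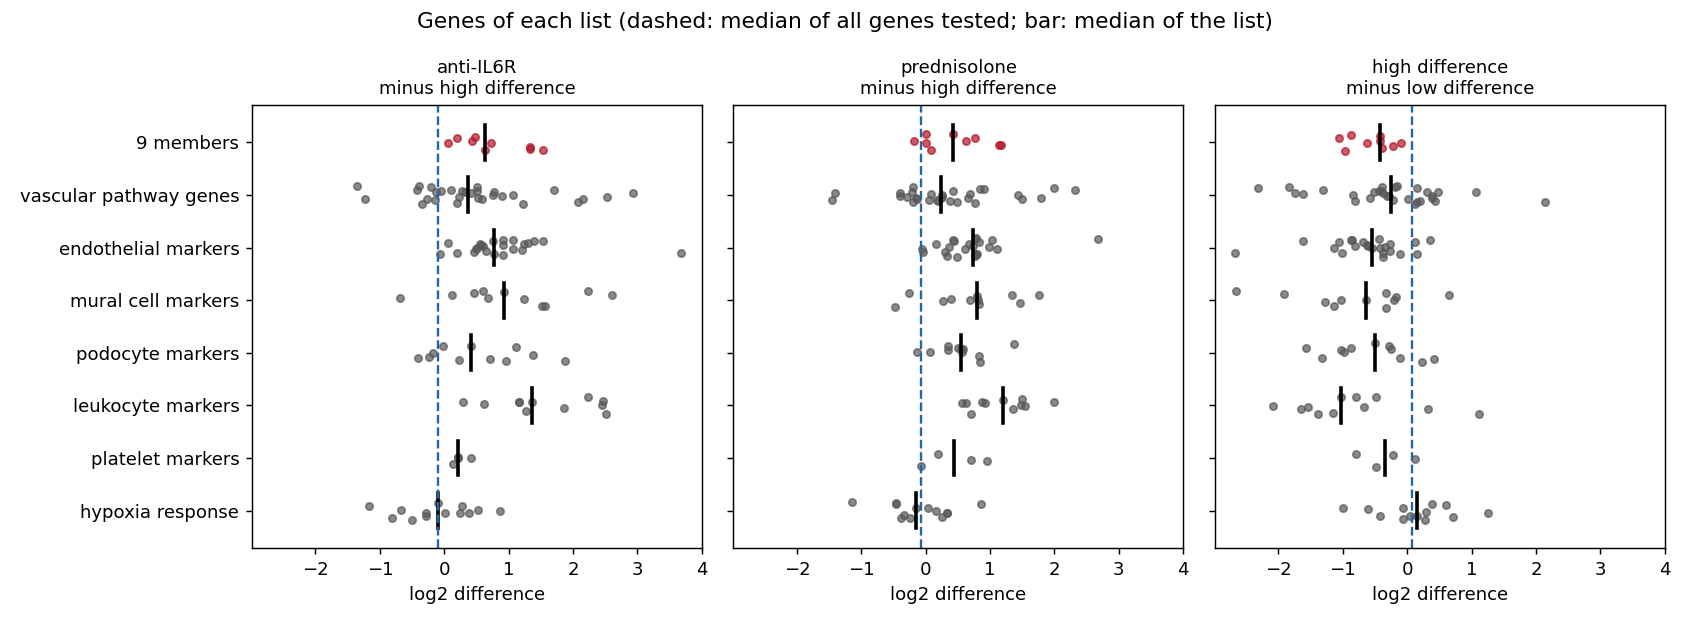
Log2 differences of the members and of the genes of 7 lists in 3 comparisons, with a bar at each median and a dashed line at the median of all genes tested. The members lie near the endothelial, mural and podocyte markers, on the opposite side of 0 from the median of all genes, and hypoxia genes straddle 0.

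Across the 8 arrays the members fell into no single pattern. Pearson's r of levels was 0.93 between Tie1 and Pecam1, 0.90 between Tie1 and Kdr, 0.81 between Tie1 and Tek, and 0.01 between Tek and Angpt2. For Tie1 and Vegfa it was -0.16. The 8 arrays share group, slide and signal strength, so these values only describe them.

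Among 2094 candidate genes with a symbol, well above background on all arrays and varying by an SD of at least 0.5, the closest to each member over the 8 arrays were taken by Pearson's r. For Tie1 they were Gimap4 (0.989), Hspa12b (0.983) and Fli1 (0.976). Kdr had Icam2 (0.996), P2ry12 (0.988) and Tasl (0.985). Pecam1 had Dpt (0.987), Slc15a3 (0.982) and Clec14a (0.98), and Tek had Sez6 (0.951), Ccna1 (0.951) and Cit (0.948). Among the ligands, Angpt2 had Folh1 (0.987), Plcl2 (0.966) and Tnfsf9 (0.963), Vegfa had Slc23a3 (0.987), Apoh (0.987) and Sox5 (0.984), and Angpt1 had Reck (0.95), Spink1 (0.944) and Adamts2 (0.933). The likeness was weaker for Flt1, with Slamf9 (0.911), Elk3 (0.903) and Dmbt1 (0.899), and for Cdh5, with Cdhr1 (0.883), Prrx1 (0.871) and Tpm2 (0.858). An r over 0.9 was reached by 87 candidates for Tie1, 85 for Kdr, 163 for Pecam1 and 105 for Vegfa, but by 0 for Cdh5.

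The size of the difference of dim members depended on the background correction. With normexp in place of the scanner's background subtraction, antibody minus high difference was 1.02 for Tie1, 0.48 for Tek, 0.18 for Pecam1 and 0.11 for Flt1, and 0.65 for the bright Kdr. High minus low difference was then -0.67 for Tie1, -0.32 for Tek, -0.1 for Pecam1, -0.075 for Flt1 and -0.7 for Kdr. The members at an unadjusted p under 0.05 were then 2 of the 9, Tie1 and Kdr, in each of high minus low difference, antibody minus high difference and prednisolone minus high difference, in place of 3, 4 and 3.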

How the data were processed

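Cy3-labelled RNA of 8 grafts was hybridised to 1-colour Agilent arrays. The deposited files hold, per spot, a processed signal intensity that Agilent Feature Extraction 9.5.1.1 had background-subtracted, per the file headers, with flags for outlier, saturated and well-above-background spots. The authors' deposited table holds the same intensities times 1 factor per array, with 1338 zeros. Every column of sample values could be assigned to a sample.

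Control and outlier spots were left out, spots of a probe were averaged as log2 intensities, and arrays were aligned at their 75th percentile. Among 41012 probes, 765 lacked an unflagged spot on some array. To be tested, a probe had to exceed background clearly on both arrays of some group (28686 probes did), and the probe with the highest mean stood for each of 24462 genes. Probe names were updated through RefSeq's gene table for GRCr8: accessions named 10735 probes, symbols 5577 and synonyms 3730, while 20970 stayed as the file named them. The files' probe positions name no build, so none is printed.

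All genes were fitted in limma 3.58.1 (R 4.3.3), all 8 arrays in a single model of 4 group means with 4 residual and 2.37 prior degrees of freedom, and p-values were adjusted by Benjamini-Hochberg. The procedure was tested on simulated data. Where a probe failed the background flag on both arrays of a group, a bound replaced the fold: the brighter group's mean against the dimmer group's mean of, per array, the higher of the lowest well-above-background level and the probe's own. No member probe was saturated. Groups came from the sample labels. Precision is limited by the 2 arrays per group, and p-values measure the spread between them.

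The members and lists were chosen with earlier results of these data known. Named were all members, from each list up to 4 genes per comparison with the smallest p, and for each member the 3 most alike genes. Alternatives covered background correction, normalization, the filter, flagged spots, the deposited table, the probe rule, a replicate block and leaving out arrays.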

Additional observations from a re-analysis of the deposited data

How the results depend on the processing

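In the 11 processing alternatives, Tie1, Tek and Pecam1 kept their direction in each of the 4 comparisons, except that no value for Pecam1 could be had when a probe had to be well above background on all arrays. Tie1 ranged from -1.08 to -0.67 for high minus low difference, 1.02 to 1.54 for antibody minus high difference and 0.64 to 1.16 for prednisolone minus high difference. The member median ranged from -0.46 to -0.19, 0.47 to 0.68 and 0.13 to 0.44 in these comparisons and from 0.15 to 0.29 between the treatments. Values near 0 turned: with normexp, Cdh5 for prednisolone minus high difference was -0.029, and Kdr and Flt1 between the treatments were -0.037 and -0.0062. Vegfa for antibody minus high difference was -0.0054 with scaling to the median and -0.0013 in the authors' deposited table, and Kdr between the treatments was -0.062 in both. In place of 0 genes called by limma, quantile normalization called 3 for high minus low difference, 7 for antibody minus high difference, 4 for prednisolone minus high difference and 2 between the treatments. Scaling to the median and the deposited table each called 1 gene in the first and 1 in the second of these, and keeping spots marked as outliers called 1 between the treatments. The causes were not tested. A replicate block called 0 genes in each comparison and changed no call, with 2865 genes for high minus low difference, 3531 for antibody minus high difference, 2430 for prednisolone minus high difference and 736 between the treatments at an unadjusted p under 0.05. The replicate numbers gave correlations of -0.35 to 0.37 between groups, so they pair no samples. A slide block was not run, since each group lay on 1 slide. Leaving out 1 array at a time called 0 to 39, 0 to 169, 0 to 224 and 0 to 130 genes in the same order of comparisons, and gave member medians of -0.84 to -0.41, 0.42 to 0.85, 0.35 to 0.72 and 0.15 to 0.58. Where the array left out belongs to a compared group, that group keeps 1 array, which is assumed to vary like the other groups. The -0.84 and the 39 genes came without high-difference replicate 1, the 169 without either prednisolone array, and the 224 and 130 without prednisolone replicate 1. Members that turned when 1 array was left out ranged, for high minus low difference, from -0.49 to 0.30 (Angpt2), -0.45 to 0.02 (Vegfa) and -0.79 to 0.014 (Cdh5). For antibody minus high difference they were Vegfa (-0.092 to 0.21) and Cdh5 (-0.20 to 0.59). For prednisolone minus high difference they were Angpt1 (-0.41 to 0.41), Angpt2 (-0.75 to 0.90), Vegfa (-1.02 to 0.66) and Cdh5 (-0.39 to 0.40). Between the treatments they were Tek (-0.29 to 0.61), Angpt2 (-0.47 to 1.18), Kdr (-0.095 to 0.12), Flt1 (-0.13 to 0.71), Vegfa (-0.60 to 1.08) and Cdh5 (-0.12 to 0.50). Leaving out both prednisolone arrays, an alternative chosen after seeing the data, called 28 genes for high minus low difference and 169 for antibody minus high difference, with Tie1 among these at 1.53.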
